A study of Mus musculus with 18 samples.

Results

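The S100 genes encode small calcium-binding proteins, and 10 of them, S100A1, S100A4, S100A6, S100A8, S100A9, S100A10, S100A11, S100A13, S100A14 and S100A16, were followed here through 18 mouse thyroid libraries. They were chosen by name from the 23626 genes used, with earlier results of these data known. The filter on low values, at least 10 TPM in at least 4 libraries, was passed by 9 of the 10 and by 7825 genes in all; S100A9 did not pass it. TPM is a transcript abundance scaled to transcript length and to a fixed total. All 10 lie on mouse chromosome 3. Along it the order is S100A1, S100A13, S100A14, S100A16, S100A4, S100A6, S100A8, S100A9, S100A11 and S100A10.

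The libraries were made from 9000 to 20000 YFP-positive cells sorted from thyroids at 20 weeks, and the labels call every sample a thyroid tumor, sorted thyrocytes and treatment naive. The tumours that carried both BrafV600E and K5-Tert are called K5-Tert tumours (n = 4); by its name K5-Tert is a transgene that drives Tert, the catalytic subunit of telomerase, from a keratin 5 promoter. Tumours with BrafV600E and Tert-123C>T, a base change ahead of the endogenous Tert gene, are called Tert-123 tumours (n = 7), and those with BrafV600E alone Braf tumours (n = 4). The Braf mutation was absent from 3 further libraries, each a single pool of samples: 1 K5-Tert pool, 1 Tert-123 pool and 1 wild-type (WT) pool, although these too carry the tumor label. The labels give neither the driver of BrafV600E and YFP nor the number of animals in a pool. Nothing in them says that each tumour library came from its own animal, so p-values measure the spread between these libraries. TERT itself was at 11.2 to 73.9 TPM in K5-Tert tumours, 2.65 to 6.23 TPM in Tert-123 tumours and 3.78 to 5.12 TPM in Braf tumours. The pools had 125 TPM with K5-Tert, 8.79 TPM with Tert-123 and 2.15 TPM in WT.

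S100 proteins are small EF-hand proteins that mostly work as dimers, change shape on binding calcium and then dock onto partner proteins. Among these partners are annexins, which bind membranes, and cytoskeletal proteins; some S100 proteins are also released and act on cell surface receptors such as RAGE, encoded by Ager, and Tlr4. S100A8 and S100A9 form calprotectin, an abundant protein of neutrophils and monocytes. S100A4 is known from migrating fibroblasts, myeloid cells and metastatic tumour cells. S100A6 and S100A11 are widely expressed in proliferating epithelia, and S100A10 forms a complex with annexin A2 at the plasma membrane.

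Several features of the libraries bear on these genes. The number of genes at 1 TPM or more ran from 10958 to 15045, no read totals were used here, and the depth is unknown. RPPH1, a noncoding RNA, took 43.7% to 68.8% of the TPM. Most genes were lower in K5-Tert tumours on the deposited scale: the median log2 fold change over all genes was -0.47 against Braf tumours, and 0.07 once libraries were rescaled with factors of the trimmed-mean (TMM) type. In 3 of the 4 K5-Tert tumours longer transcripts were also read less, with log2 TPM changing by -0.16, -0.05 and -0.11 per doubling of length against the mean tumour library, and in the other it changed by 0.08. The value was 0.11, 0.08 and 0.11 in the K5-Tert, Tert-123 and WT pools, -0.05 in Tert-123 tumour 7 and 0.01 to 0.06 in every other tumour. The S100 transcripts are short, at a median of 417 to 987 bases per gene, or the 0.978 to 43.5 percentile of the genes tested. The K5-Tert tumours also bear later sample numbers than any other tumour; whether this marks a separate run is not stated, and such a run and K5-Tert cannot be told apart.

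In all 3 tumour groups the 10 genes stood in the same order of mean level: S100A11, S100A6, S100A1, S100A10, S100A4, S100A13, S100A16, S100A14, S100A8 and S100A9. The values are read here as TPM, which is scaled to transcript length. On that reading levels of different genes can be set side by side, but how the values were made is not given. Neighbours in this order did not all separate. S100A11 was above S100A6 in 13 of 15 tumours, S100A6 above S100A1 in 13, S100A1 above S100A10 in 13 and S100A10 above S100A4 in 13. S100A4 was above S100A13 in 12 of 15 and S100A14 above S100A8 in 12, whereas S100A13 exceeded S100A16, and S100A16 exceeded S100A14, in all 15. In each of the 3 pools S100A1 came first and S100A11 after it. Together the 10 genes summed to 2060 to 3612 TPM in K5-Tert tumours, 1628 to 3666 TPM in Tert-123 tumours and 1881 to 2777 TPM in Braf tumours. The same sum was 3703 TPM in the K5-Tert pool, 2237 TPM in the Tert-123 pool and 2379 TPM in the WT pool. The sums of the tumours and the pools overlapped, whereas the shares of S100A1, S100A4, S100A6 and S100A14 in the sum separated them. The shares of S100A8, S100A9, S100A10, S100A11, S100A13 and S100A16 overlapped. S100A1 made up 12.1% to 20.9% of the summed S100 TPM in the 15 tumours, against 39.4%, 38.4% and 37.7% in the K5-Tert, Tert-123 and WT pools. S100A6 made up 11.8% to 32.0% in the tumours, against 8.31%, 4.07% and 3.81% in the K5-Tert, Tert-123 and WT pools.

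**Figure D1:**
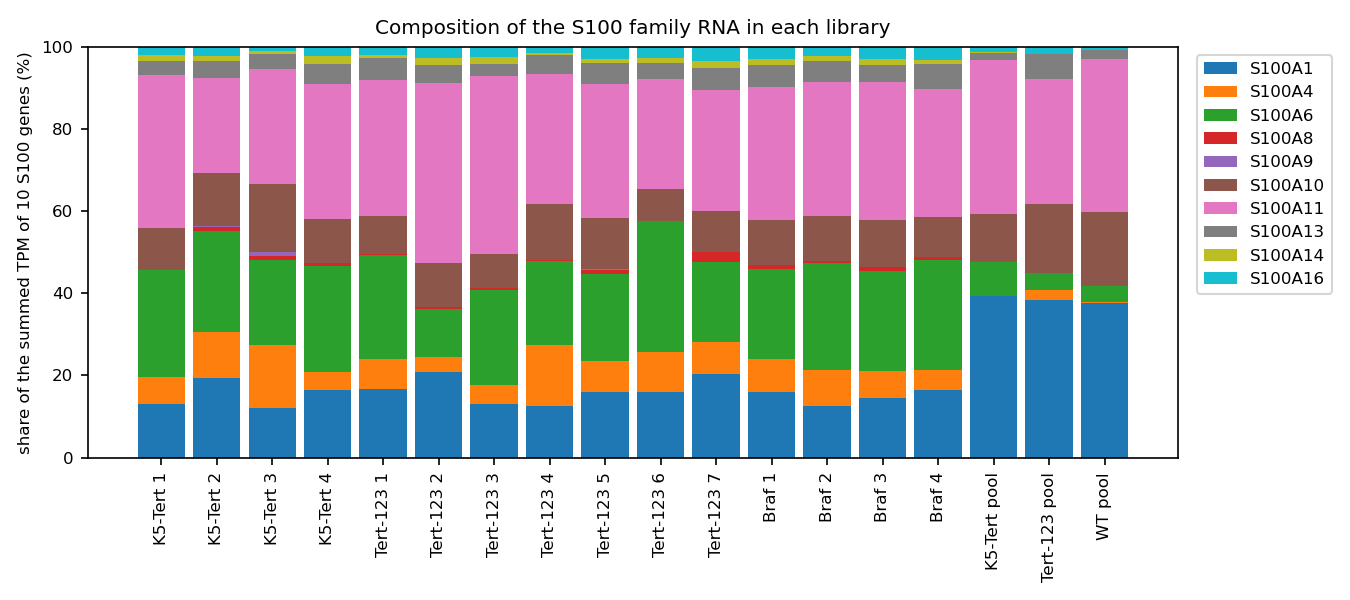
Share of each of the 10 S100 genes in their summed TPM (%, vertical axis) in each of the 18 libraries, tumours left and pools right, stacked to 100%. S100A1 holds 37.7% to 39.4% of the stack in the pools and at most 20.9% in any tumour.

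The comparison of Braf mutant tumours with tissue lacking the mutation asks how the family differs once BrafV600E is present. S100A4, S100A6, S100A8, S100A14 and S100A16 were higher in the tumours, S100A1 was lower, and S100A10, S100A11 and S100A13 did not pass the test. Thus 5 of the 9 members tested were higher, where 15.4% of all genes tested were called higher, and 1 of 9 was lower, where 10% of all genes were. The members' median log2 fold change was 0.94, beside 0.07 over all genes. S100A8 and S100A14 were under 10 TPM in every pool and could pass the filter only through the tumours, so the count over members is a description. The pools are 3 single libraries, 1 for each Tert allele, and limma fitted the mutation beside the allele on log2(TPM + 1). In sorted bulk samples, fewer cells of a type and less RNA per cell cannot be told apart.

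S100A1, a family member known for binding calcium-handling proteins in muscle, was the leading S100 transcript of the pools. It had 443, 400, 438 and 568 TPM in the K5-Tert tumours and a lowest, median and highest value of 313, 426 and 634 TPM in the Tert-123 tumours. The Braf tumours had 302, 346, 376 and 382 TPM, and the pools 1457 TPM with K5-Tert, 858 TPM with Tert-123 and 896 TPM in WT. Every tumour was below every pool. S100A1 averaged 413 ± 92.5 TPM in the tumours and 1070 ± 336 TPM in the pools (SD, n = 15 and 3), a log2 fold change of -1.36 (SE 0.20, limma adjusted p = 2.84e-05). Mean tumour over matching pool was 0.32 with K5-Tert, 0.49 with Tert-123 and 0.39 without either allele. Thyrocyte transcripts were lower alongside: 10 marker genes summed to 297 to 1094 TPM in the tumours, against 31900, 26410 and 32520 TPM in the K5-Tert, Tert-123 and WT pools. Of the 5 thyrocyte markers tested 4 were lower, and their part in the S100A1 result was not tested. Endothelial markers, 6 of 6 in the file, summed to 11.2 to 106 TPM in the tumours, against 85.3, 828 and 300 TPM in the K5-Tert, Tert-123 and WT pools. All 4 endothelial genes tested, EMCN, KDR, PECAM1 and CDH5, were lower in the tumours, with a median log2 fold change of -3.00, and their part in the S100 values was not tested either.

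S100A13, which takes part in the release of fibroblast growth factor 1 from cells, starts next to S100A1 and is read in the opposite direction. It did not follow S100A1. It had 119, 84.8, 134 and 173 TPM in the K5-Tert tumours, 70.5, 103 and 171 TPM as lowest, median and highest in the Tert-123 tumours, and 102, 140, 107 and 142 TPM in the Braf tumours. The K5-Tert, Tert-123 and WT pools had 62.9, 133 and 51.8 TPM. All tumours were above the K5-Tert and WT pools, while the Tert-123 pool lay within the tumour range. The means were 121 ± 32.1 TPM in the tumours and 82.5 ± 43.9 TPM in the pools (SD, n = 15 and 3), with a log2 fold change of 0.62 (SE 0.28, limma adjusted p = 0.119). Without the Tert-123 pool that log2 fold change was 1.09 (limma adjusted p = 0.0155; over all alternatives tried the adjusted p ran from 1.88e-04 to 0.540). Without the WT pool it was 0.33, with limma adjusted p = 0.540, the upper end of that range. The Tert-123 pool held more T cell RNA than the other libraries, 181 TPM summed over 7 markers against 1.22 to 35.6 TPM elsewhere, and more endothelial RNA, 828 TPM against 11.2 to 300 TPM. The ratio of S100A13 to S100A1 was 0.208 to 0.403 in the tumours, against 0.043, 0.155 and 0.058 in the K5-Tert, Tert-123 and WT pools. This pair was set side by side for its shared start region after its values were seen.

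The run of 104 bases between the start sites of S100A1 and S100A13 is shown because the pair shares it as its start region while their levels differed. RefSeq places it at chr3:90514331-90514434 in GRCm38.p6, and it is printed on the plus strand, the strand of S100A13, with its 3 CG pairs in capitals.
S100A1-S100A13 start region: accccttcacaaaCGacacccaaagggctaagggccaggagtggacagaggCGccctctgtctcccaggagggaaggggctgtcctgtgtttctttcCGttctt
Neither a TATA box (TATAAA) nor an AP-1 motif (TGANTCA), letters that do not contain each other, was found on either strand of the 300-base RefSeq windows of S100A1 and S100A13, which run from 250 bases before each start to 50 after it. Of all 32851 such windows 13.6% hold the TATA letters and 7.81% the AP-1 letters. The S100A1 window holds 11 CG pairs and the S100A13 window 14, where the median window holds 7.

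**Figure D2:**
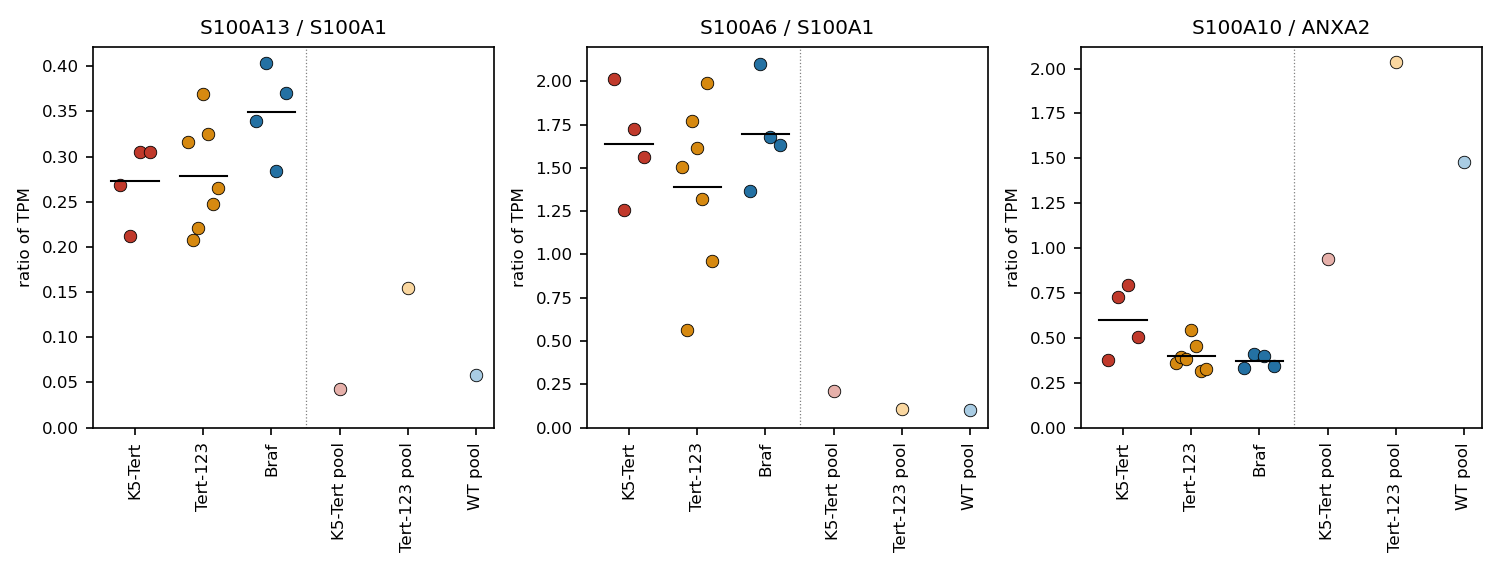
Ratios of TPM within a library (vertical axes, no unit) for S100A13 over S100A1, S100A6 over S100A1 and S100A10 over ANXA2, with 1 point for each library and a bar at the mean of each tumour group. All 15 tumours lie above all 3 pools in the first 2 panels and below them in the third.

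S100A4, a protein tied to cell motility through nonmuscle myosin, was among the members that differed most. It had 231, 232, 549 and 148 TPM in the K5-Tert tumours, 58.6, 151 and 545 TPM as lowest, median and highest in the Tert-123 tumours, and 149, 242, 164 and 116 TPM in the Braf tumours. It was listed at 0 in the K5-Tert pool and had 56.9 TPM in the Tert-123 pool and 6.53 TPM in the WT pool. All 15 tumours were above all 3 pools, the lowest tumour and the highest pool by little. Means were 225 ± 142 TPM in the tumours and 21.1 ± 31.1 TPM in the pools (SD, n = 15 and 3). The log2 fold change was 4.61 (SE 0.70, limma adjusted p = 3.24e-05), and it moved to 2.98 without the K5-Tert pool and to 6.22 without the Tert-123 pool.

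Several myeloid and fibroblast transcripts were, like S100A4, higher with the Braf mutation. The macrophage and monocyte list, all 13 genes in the file, summed to 522 to 3908 TPM in K5-Tert tumours, 234 to 5268 TPM in Tert-123 tumours and 649 to 1083 TPM in Braf tumours. The pools held 75.8 TPM with K5-Tert, 298 TPM with Tert-123 and 61.7 TPM in WT. FCGR1, CCR2 and ITGAM were at 0 in the K5-Tert pool, and FCGR1 and LY6C2 in the WT pool. Of the 9 macrophage genes tested 7 were higher with the Braf mutation, where 15.4% of all genes were; 2 of the 7, MRC1 and LY6C2, were under 10 TPM in every pool. Fibroblast markers, 6 of 6 in the file, summed to 89.0 to 2379 TPM in the tumours, against 33.4, 327 and 34.8 TPM in the K5-Tert, Tert-123 and WT pools, and 3 of the 5 tested, COL1A1, COL1A2 and COL3A1, were higher. The 2 highest macrophage sums, in Tert-123 tumour 4 and K5-Tert tumour 3, were also the 2 highest S100A4 values. Most of these sums was 1 gene, LYZ2, with 4275 of 5268 TPM and 2607 of 3908 TPM. In Braf tumours LYZ2 averaged 650 TPM. The order of libraries by macrophage sum may therefore largely be that of LYZ2. The lowest macrophage sum of any tumour, 234 TPM in Tert-123 tumour 2, went with the lowest S100A4 value. The Braf tumours ran the other way. Braf tumour 2 had the highest S100A4 of its group, 242 TPM, with the lowest macrophage sum, 649 TPM. Braf tumour 4 had the lowest S100A4, 116 TPM, with the highest macrophage sum of that group, 1083 TPM. The genes closest in pattern to S100A4 over the 18 libraries were TYROBP, FCGR3 and COL5A2, with root mean square differences of 0.69, 0.71 and 0.80 in centred log2(TPM + 1) among 1335 candidates. TYROBP and FCGR3 encode receptor subunits of myeloid cells, and COL5A2 a fibrillar collagen. The part of these cells in the S100A4 result was not tested. With both high libraries left out the S100A4 log2 fold change was 4.35 (limma adjusted p = 2.58e-05; over all alternatives the adjusted p ran from 2.39e-07 to 8.71e-04).

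S100A8, a subunit of calprotectin, was listed at 0 in all 3 pools. It had 3.41, 20.2, 32.5 and 24.5 TPM in the K5-Tert tumours, 0, 7.12 and 75.4 TPM as lowest, median and highest in the Tert-123 tumours, and 19.7, 12.2, 22.1 and 14.0 TPM in the Braf tumours. It was therefore above the pools in 14 of 15 tumours (limma adjusted p = 8.82e-04), and like S100A14 it entered the fit only through the tumours. No fold is given against pools that are all at 0. S100A9, the other subunit, was at 0 in the 3 pools and above 0 in 8 of 15 tumours. Its values were 0, 6.36, 31.5 and 0 TPM in the K5-Tert tumours, at most 2.10 TPM in the Tert-123 tumours, and 0, 0.943, 0.940 and 0.933 TPM in the Braf tumours. The mean was 18.5 ± 18.3 TPM for S100A8 and 2.97 ± 8.05 TPM for S100A9 (SD, n = 15), so the 2 subunits were not at equal RNA levels. Neutrophil markers, 15 of 15 in the file, were low throughout, at 6.60 to 94.2 TPM in K5-Tert tumours, 9.59 to 194 TPM in Tert-123 tumours and 18.2 to 31.2 TPM in Braf tumours. All 15 neutrophil markers were at 0 in the K5-Tert pool, 11 in the Tert-123 pool and 12 in the WT pool, LY6G and CXCR2 among them in each. WFDC21, the 1 neutrophil marker that passed the filter, was called higher with the Braf mutation. It was at 0 in all 3 pools and entered the fit only through the tumours. With the library mean and length trend removed it was not called. Tert-123 tumour 4 had the highest neutrophil sum, 194 TPM, with S100A8 at 4.54 TPM. Of that sum 140 TPM was WFDC21, while LY6G and CXCR2 were at most 0.513 and 0.678 TPM in any Tert-123 tumour. That sum is therefore mostly a reading of 1 gene. Tert-123 tumour 7 had the highest S100A8, 75.4 TPM, with a neutrophil sum of 26.4 TPM. K5-Tert tumour 3, with a sum of 94.2 TPM, had the highest S100A8 and S100A9 of its group. The part of neutrophils in the calprotectin values was not tested. The genes nearest to S100A8 in pattern, FABP5, BCL2A1B and NAPSA, stood 1.16, 1.28 and 1.29 away, farther than the nearest genes of any other member tested.

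The bases ahead of the S100A4 and S100A8 starts are shown because both genes were higher in the tumours and both windows hold a TATA box, in capitals, 31 and 30 bases ahead of the start. Each run is 100 bases on the plus strand up to the start, in GRCm38.p6 from RefSeq, at chr3:90603670-90603769 for S100A4 and chr3:90668971-90669070 for S100A8.
S100A4: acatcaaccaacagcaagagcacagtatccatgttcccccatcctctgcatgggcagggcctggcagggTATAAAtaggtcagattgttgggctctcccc
S100A8: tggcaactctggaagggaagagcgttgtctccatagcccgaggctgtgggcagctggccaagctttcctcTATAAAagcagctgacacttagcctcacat
S100A9 also holds the letters TATAAA, but at the start site itself. The windows of S100A6, S100A11 and S100A16, like those of S100A1 and S100A13, hold none. Windows were given for 8 of the 10 members, and a match is only a description of the letters.

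S100A6, which binds calcyclin-binding protein and is common in growing cells, had 892, 503, 755 and 888 TPM in the K5-Tert tumours and 192, 610 and 860 TPM as lowest, median and highest in the Tert-123 tumours. It had 413, 727, 630 and 623 TPM in the Braf tumours, and 308, 91.0 and 90.7 TPM in the K5-Tert, Tert-123 and WT pools. In 14 of 15 tumours it was above every pool, the exception being Tert-123 tumour 2. The means were 634 ± 201 TPM in the tumours and 163 ± 125 TPM in the pools (SD, n = 15 and 3). The log2 fold change was 2.17 (SE 0.34, limma adjusted p = 4.42e-05), and leaving out any library kept it between 1.92 and 2.60. Set against S100A1 in the same library, S100A6 was 0.566 to 2.10 times as abundant in the tumours, against 0.211, 0.106 and 0.101 times in the K5-Tert, Tert-123 and WT pools. Nearest to it in pattern were 2200002D01RIK, at a distance of 0.35, CAPG, which caps actin filaments, at 0.47, and AREG, a ligand of the epidermal growth factor receptor, at 0.51.

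S100A14, a member known from epithelia, had 51.3, 25.2, 25.1 and 62.5 TPM in the K5-Tert tumours and 14.9, 27.5 and 54.4 TPM as lowest, median and highest in the Tert-123 tumours. It had 27.6, 35.6, 37.2 and 25.7 TPM in the Braf tumours, and 6.01, 0.493 and 0 TPM in the K5-Tert, Tert-123 and WT pools. The tumours were all above the pools. The means were 33.3 ± 14.6 TPM in the tumours and 2.17 ± 3.34 TPM in the pools (SD, n = 15 and 3), with a log2 fold change of 3.91 (SE 0.40, limma adjusted p = 1.77e-07). S100A14 was under 10 TPM in every pool, so it entered the fit through the tumours, the group where it is high. Leaving out any library kept its log2 fold change between 3.38 and 4.59, and over all alternatives it ran from 2.46 to 4.85. The gene nearest to it was the same as for S100A6, 2200002D01RIK, at 0.75, followed by CCND1, a cyclin of the G1 phase, at 0.76 and CLU, a secreted chaperone, at 0.78.

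S100A16, whose gene lies beside S100A14, had 65.5, 44.2, 36.4 and 77.0 TPM in the K5-Tert tumours, 36.2, 56.9 and 110 TPM as lowest, median and highest in the Tert-123 tumours, and 53.9, 60.6, 75.2 and 71.5 TPM in the Braf tumours. The pools had 46.1 TPM with K5-Tert, 39.9 TPM with Tert-123 and 15.2 TPM in WT. Of the 15 tumours 11 were above every pool, and the groups overlapped. The means of 62.8 ± 19.6 TPM in the tumours and 33.7 ± 16.3 TPM in the pools (SD, n = 15 and 3) gave a log2 fold change of 0.94 (SE 0.32, limma adjusted p = 0.0321). The call rested on the WT pool: without it the log2 fold change was 0.42 (limma adjusted p = 0.432; over all alternatives the adjusted p ran from 3.40e-06 to 0.432).

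S100A10, which holds annexin A2 at the membrane and lacks calcium binding of its own, had 352, 268, 600.2 and 363 TPM in the K5-Tert tumours and 173, 246 and 498 TPM as lowest, median and highest in the Tert-123 tumours. It had 207, 306, 292 and 228 TPM in the Braf tumours, and 433, 375 and 430 TPM in the K5-Tert, Tert-123 and WT pools. It was below every pool in 13 tumours and above them in the other 2, K5-Tert tumour 3 and Tert-123 tumour 4. The means were 300 ± 118 TPM in the tumours and 412 ± 32.8 TPM in the pools (SD, n = 15 and 3), a log2 fold change of -0.51 (SE 0.27, limma adjusted p = 0.181). Those 2 libraries were also left out together, a choice made after the data were seen. It removes the only tumours above the pools and so favours a lower value, which leaves it unable to decide the question. The log2 fold change was then -0.64 (limma adjusted p = 0.0319). Over all alternatives the adjusted p ran from 0.0131 to 0.612. ANXA2, the annexin it pairs with, was higher at 683 ± 172 TPM in the tumours against 312 ± 139 TPM in the pools, by 1.21 on the log2 scale (SE 0.27, limma adjusted p = 0.00172). S100A10 per ANXA2 was accordingly 0.315 to 0.792 in the tumours, against 0.940, 2.03 and 1.48 in the K5-Tert, Tert-123 and WT pools.

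S100A11, the most abundant member in the tumours and a partner of annexin A1, showed no such separation. It had 1273, 477, 1010 and 1129 TPM in the K5-Tert tumours, 640, 723 and 1410 TPM as lowest, median and highest in the Tert-123 tumours, and 606, 906, 867 and 724 TPM in the Braf tumours. The K5-Tert, Tert-123 and WT pools had 1390, 684 and 889 TPM. Tumour and pool values overlapped. The means were 880 ± 270 TPM in the tumours and 988 ± 364 TPM in the pools (SD, n = 15 and 3), with a log2 fold change of -0.15 (SE 0.27, limma adjusted p = 0.727). A pseudogene with like sequence is annotated, S100a11-ps, and reads may be shared with it, so the level is uncertain. Its nearest genes in pattern were ANXA7 and ANXA5, both annexins, at a distance of 0.25 each, and MAP1LC3B, an autophagy protein, at 0.28.

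The 150 bases ahead of the S100A11 start, at chr3:93520346-93520495 in GRCm38.p6, are printed because they hold the AP-1 motif at 2 places, in capitals, beginning 136 and 38 bases ahead of the start. AP-1 is the Jun and Fos transcription factor pair that acts downstream of Braf signalling. The motif reads the same on both strands.
S100A11: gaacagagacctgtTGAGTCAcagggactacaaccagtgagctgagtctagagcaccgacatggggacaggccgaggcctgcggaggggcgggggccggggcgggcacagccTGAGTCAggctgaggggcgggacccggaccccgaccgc
The only other member window with the AP-1 letters is that of a second S100A16 start, 192 bases ahead of it. The S100A6 window lacks the letters. No window of S100A10 or S100A14 was analysed here.

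**Figure D3:**
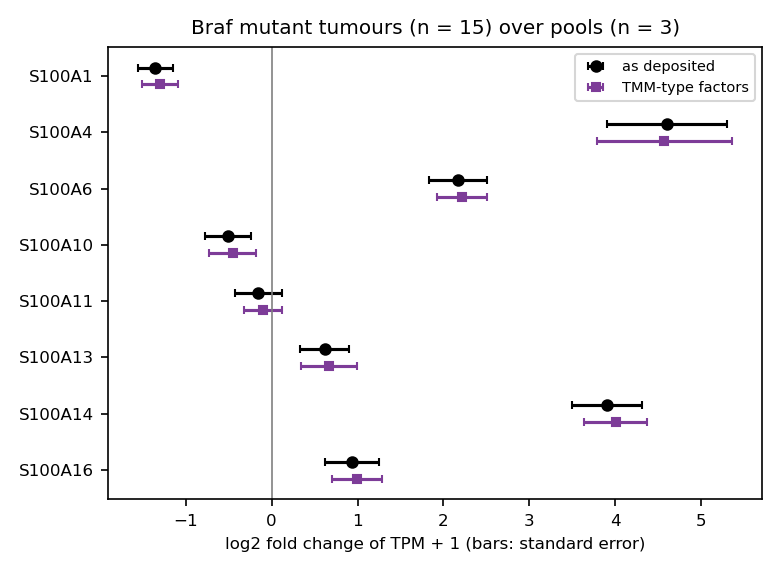
Log2 fold change of TPM + 1 in the 15 Braf mutant tumours over the 3 pools (horizontal axis, bars: standard error) for 8 of the 9 S100 genes tested, on the deposited scale (black) and after TMM-type rescaling (purple). The deposited values run from -1.36 for S100A1 to 4.61 for S100A4; S100A8 is left out because the pools were all at 0.

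Partners and relatives of the family were read from the same fit. Of 12 annexins in the file 10 were tested; 3 were higher with the Braf mutation and 1 lower, where 15.4% of all genes tested were higher and 10% lower. ANXA8 was higher by 4.48 on the log2 scale (36.5 ± 16.6 TPM in the tumours against 0.564 ± 0.386 TPM in the pools, SD, n = 15 and 3; limma adjusted p = 3.11e-08). ANXA3 was higher by 0.99 and ANXA2 by the value given above, and ANXA6 was lower by a log2 fold change of -1.36 (limma adjusted p = 1.40e-04). ANXA8 was under 10 TPM in every pool and entered the fit through the tumours. The annexins thus moved in both directions, with a median log2 fold change of 0.00 beside 0.07 over all genes.

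Of the 16 receptors and binding partners listed, 15 were in the file and 13 were tested; 5 were higher and 3 lower with the Braf mutation, beside the same shares of all genes. Of these 5, CD36 and PLAT were under 10 TPM in every pool and entered the fit through the tumours. The largest rise was in CD36, a scavenger receptor and fatty acid transporter that has been linked to S100A8 and S100A9, at 124 ± 55.0 TPM in the tumours against 2.43 ± 1.90 TPM in the pools (SD, n = 15 and 3; log2 fold change 5.19, limma adjusted p = 1.79e-10). PLAT, the tissue plasminogen activator whose product binds S100A10, rose by 2.60 (limma adjusted p = 2.40e-05). FGF1, the growth factor released together with S100A13, fell by 2.58, at 8.01 ± 2.53 TPM in the tumours against 51.5 ± 6.99 TPM in the pools (SD, n = 15 and 3; limma adjusted p = 3.77e-07). AGER, which encodes RAGE, was also lower, at 241 ± 71.1 TPM in the tumours against 579 ± 283 TPM in the pools, by a log2 fold change of -1.18 (limma adjusted p = 0.00547). TLR4 did not pass the filter; its group means were 5.88 TPM in K5-Tert tumours, 6.51 TPM in Tert-123 tumours and 7.48 TPM in Braf tumours, against 2.43, 2.23 and 1.20 TPM in the K5-Tert, Tert-123 and WT pools. Of the 13 calmodulins and other small EF-hand proteins tested, EFHD2 was higher by 1.46, while CALML3 and CHP1 were lower, at log2 fold changes of -2.53 and -0.69. Thus 1 of 13 was higher and 2 were lower, beside 15.4% and 10% of all genes.

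Among the 7 other S100 genes in the file, S100G, the vitamin D dependent calbindin, passed the filter. It had 22.4, 15.4, 39.1 and 97.6 TPM in K5-Tert tumours, 8.49, 13 and 31.5 TPM as lowest, median and highest in Tert-123 tumours, and 18.5, 19.5, 17.1 and 13.6 TPM in Braf tumours. The pools had 32.9 TPM with K5-Tert, 0.987 TPM with Tert-123 and 0 TPM in WT. It was higher with the Braf mutation by 2.41 (limma adjusted p = 0.00162), but the tumours and pools overlapped. The K5-Tert pool lay above every Braf and Tert-123 tumour, while the Tert-123 and WT pools were near 0. S100B, a marker of glia that did not pass the filter, was at 0.225 to 6.96 TPM in the 15 tumours and at 59.1, 18.8 and 35.2 TPM in the K5-Tert, Tert-123 and WT pools. These groups did not overlap, and no test was run. Schwann cell markers, 5 of 5 in the file, summed to 14.1 to 35 TPM in the tumours, against 105, 39.6 and 51.0 TPM in the K5-Tert, Tert-123 and WT pools, with SOX10 at 0 in the K5-Tert and WT pools. Their part in the S100B values was not tested.

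Within the Braf mutant tumours, the first question is what K5-Tert adds. On the deposited scale 0 of the 9 members tested differed between K5-Tert and Braf tumours, where 0.626% of all genes were called higher and 21.2% lower. By limma 0 members also had an unadjusted p under 0.05. The members' log2 fold changes had a median of 0.27 beside -0.47 over all genes. S100A1 averaged 462 ± 72.8 TPM in K5-Tert tumours and 352 ± 36.6 TPM in Braf tumours (SD, n = 4 each). All 4 K5-Tert values lay above all 4 Braf values, for 1 of the 9 members tested. The share of all genes that separate in this way is not given, here or against the pools. The S100A1 difference was not called on this scale. Its log2 fold change was 0.39 (SE 0.23, limma adjusted p = 0.209). S100A10 averaged 396 ± 143 TPM in K5-Tert tumours and 258 ± 48.4 TPM in Braf tumours (SD, n = 4 each), by 0.57 (SE 0.31, limma adjusted p = 0.167), and the groups overlapped. S100A4 averaged 290 ± 177 TPM in K5-Tert tumours and 168 ± 53.5 TPM in Braf tumours (SD, n = 4 each), by 0.66 (SE 0.49, limma adjusted p = 0.311). Without K5-Tert tumour 3, whose macrophage sum was 3908 TPM, the log2 fold change was 0.30 for S100A4 and 0.35 for S100A10.

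With TMM-type factors 3 of the 9 were called higher in K5-Tert tumours, where 6.66% of all genes were. They were S100A1 by 0.97 (limma adjusted p = 0.0193, range over alternatives 0.0193 to 0.594), S100A10 by 1.16 (adjusted p = 0.0132, range 0.0132 to 0.387) and S100A11 by 0.84 (adjusted p = 0.0389, range 0.0389 to 0.924). After each library's mean and length trend were removed 2 of the 9 were called, S100A1 by 0.75 and S100A10 by 0.93, where 4.77% of all genes were called higher. The calls for K5-Tert tumours thus depended on the scale. Markers of other cells moved as well: 3 of 5 pericyte and smooth muscle genes tested, TAGLN, ACTA2 and RGS5, and 1 of 9 macrophage genes, CD14, were higher in K5-Tert tumours on the deposited scale. The 6 pericyte and smooth muscle markers summed to 37.2 to 185 TPM in K5-Tert tumours and 17.1 to 35.9 TPM in Braf tumours. Their part in the S100 values was not tested.

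Against Tert-123 tumours the K5-Tert tumours gave a like picture. On the deposited scale 0 of 9 members were called, where 0.805% of all genes were higher and 28.5% lower, and 1 member, S100A10, had an unadjusted p under 0.05 by limma. S100A10 averaged 396 ± 143 TPM in K5-Tert tumours and 269 ± 112 TPM in Tert-123 tumours (SD, n = 4 and 7), by 0.58 (SE 0.27, limma adjusted p = 0.103). Without Tert-123 tumour 4 it was higher by 0.74 (limma adjusted p = 0.0287; range over alternatives 0.00526 to 0.302). Without K5-Tert tumour 3 the log2 fold change of S100A10 was 0.36, and without both of these libraries 0.52, neither of them called. With TMM-type factors 5 of 9 members were called higher, where 9.09% of all genes were: S100A1 by 0.78, S100A6 by 1.10, S100A10 by 1.20, S100A11 by 0.72 and S100A14 by 1.09. S100G was called higher on the deposited scale as well, by 1.18 (limma adjusted p = 0.0309). S100A9 averaged 9.46 TPM in K5-Tert tumours, from the 2 libraries above 0, and 0.551 TPM in Tert-123 tumours; a two-sided exact permutation test of log2(TPM + 1) gave p = 0.158 (smallest possible 0.00303). Against Braf tumours, at 0.704 TPM, the same exact test gave p = 0.429 (smallest possible 0.0286).

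**Figure D4:**
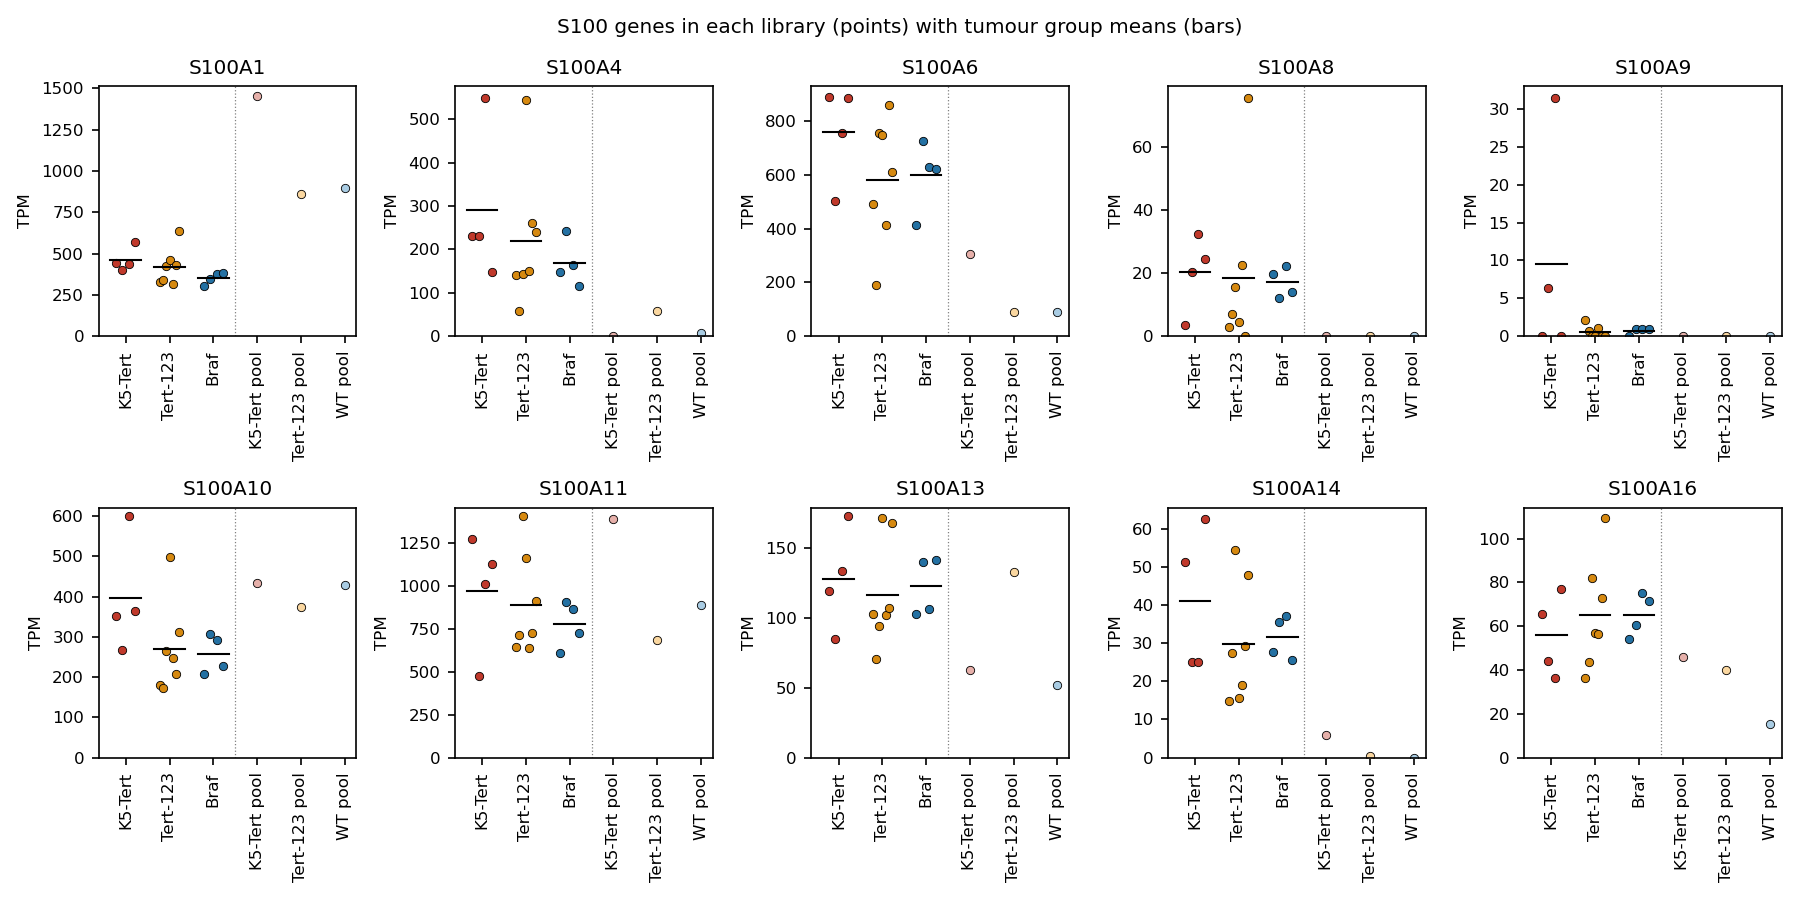
TPM of each of the 10 S100 genes (vertical axes, starting at 0) in every library, with bars at the means of the 3 tumour groups and the 3 pools at the right of each panel. The tumours lie above the pools for S100A4 and S100A14 and below them for S100A1. The tumour groups overlap for every gene except S100A1 between K5-Tert and Braf tumours, a difference not called on the deposited scale.

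No difference in the family was detected between Tert-123 tumours and tumours without the change. Between Tert-123 and Braf tumours 0 of 9 members were called, and by limma 0% of all genes were called higher and 0% lower, with 51 genes and 0 members at an unadjusted p under 0.05. Log2 fold changes of the members ran from -0.94 for S100A8 to 0.22 for S100A1, with a median of -0.07 beside 0.00 over all genes. S100A8 averaged 18.3 ± 26.4 TPM in Tert-123 tumours and 17.0 ± 4.71 TPM in Braf tumours (SD, n = 7 and 4), with the higher mean but the lower log2 level in Tert-123 tumours. S100A1 averaged 419 ± 112 TPM in Tert-123 tumours and 352 ± 36.6 TPM in Braf tumours (SD, n = 7 and 4). S100A9 gave p = 0.546 by the two-sided exact permutation test (smallest possible 0.00303). S100A4 was at 220 ± 159 TPM in Tert-123 tumours and 168 ± 53.5 TPM in Braf tumours (SD, n = 7 and 4). Its log2 fold change over Braf tumours was 0.15, and -0.12 without Tert-123 tumour 4.

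Of the annexins, 1 of 10 tested, ANXA9, was lower in K5-Tert tumours than in Braf tumours, at 1.62 ± 1.17 TPM against 7.86 ± 2.67 TPM (SD, n = 4 each; log2 fold change -1.82, limma adjusted p = 0.0249), and with TMM-type factors it was not called. EZR, a membrane-cytoskeleton linker, was lower on the deposited scale, at 154 ± 49.1 TPM in K5-Tert tumours and 273 ± 45.3 TPM in Braf tumours (SD, n = 4 each; limma adjusted p = 0.0463). It too was not called with TMM-type factors, which called 0 of these lists' genes lower in K5-Tert tumours than in Braf tumours. They called 1 of 10 annexins, 3 of 13 partners and 1 of 13 EF-hand genes higher, beside 6.66% of all genes. Of the EF-hand list 0 of 13 were called on the deposited scale. On that scale 1 of 10 annexins and 1 of 13 partners were lower than in Braf tumours, where 21.2% of all genes were. Against Tert-123 tumours ANXA9, EZR and MYH9, the nonmuscle myosin heavy chain bound by S100A4, were lower in K5-Tert tumours on the deposited scale. That is 1 of 10 annexins and 2 of 13 partners, where 28.5% of all genes were lower. With TMM-type factors 0 of these lists' genes were lower in that comparison. Higher were 3 of 10 annexins, 2 of 13 partners and 3 of 13 EF-hand genes, beside 9.09% of all genes. None of the annexins, partners or EF-hand genes tested differed between Tert-123 and Braf tumours.

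**Figure D5:**
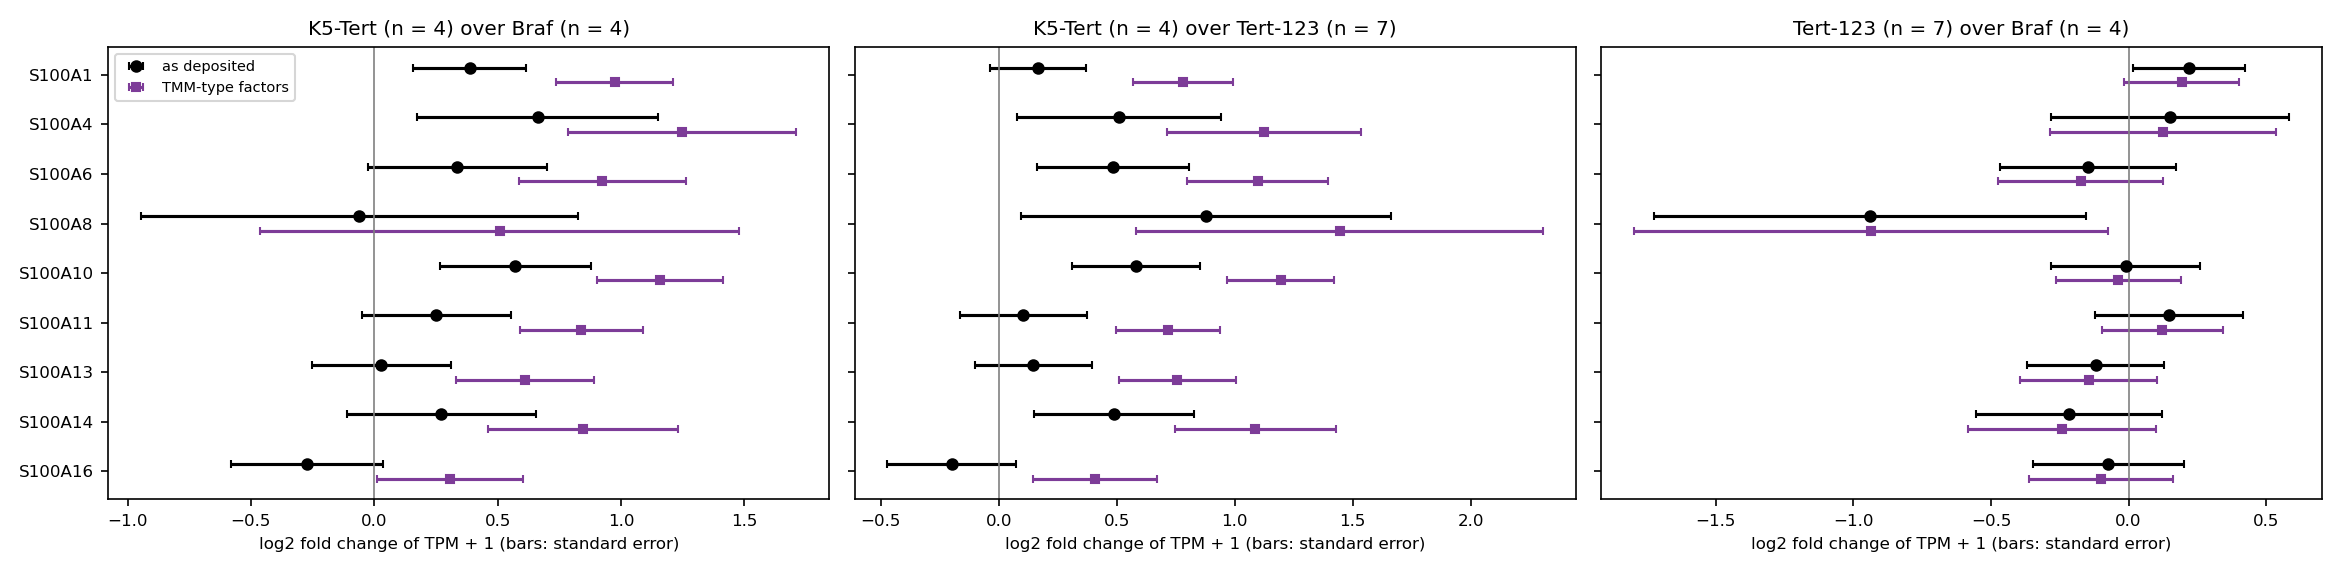
Log2 fold change of TPM + 1 between tumour groups (horizontal axes, bars: standard error) for the 9 S100 genes tested, on the deposited scale (black) and after TMM-type rescaling (purple). In both K5-Tert panels the rescaled values lie above the deposited ones for all 9 genes, while in the Tert-123 over Braf panel both sets lie close together.

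The remaining likeness values describe the less variable members. S100A1 was nearest in pattern to JUND, ACAA2 and NDUFA13, at distances of 0.25, 0.25 and 0.26 over the 18 libraries. S100A10 was nearest to SELENOF at 0.26, PRELID1 at 0.34 and RNH1 at 0.34. CLIC1, a chloride channel protein, was nearest to both S100A13, at 0.32, and S100A16, at 0.31. It was followed by MYDGF and LDHA, at 0.35 each, for S100A13 and by TMEM176B and POLR2F, at 0.35 each, for S100A16. All libraries share the same scaling, so such distances are also small for genes that vary little.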

How the data were processed

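RNA was measured in 18 libraries of sorted thyroid cells by a low-input protocol with 14 PCR cycles and paired reads of 100 bp, per the labels. The deposited table holds values that the authors had normalized to a fixed total, read here as TPM because each column sums to 1000000; its own name is normalized counts, and their making is not given in the sources used here. The same holds for the aligner, build, annotation and strand setting, and the depth is unknown. Of 23652 entries 26 with names turned into dates were left out.

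Groups followed the genotype labels; library numbers are in series order and pair nothing. The limma package (3.58.1; R 4.3.3) was run on log2(TPM + 1), its mean-variance trend switched on, for genes with at least 10 TPM in at least 4 libraries. One model held the 15 tumours (12 degrees of freedom left), another all 18 libraries with terms for Braf and Tert allele (14 left). Tests were two-sided, with Benjamini-Hochberg adjustment over 7825 genes and a threshold of 0.05. S100A9, under the filter, got exact permutation tests. The fits were tested on simulated data.

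The members and gene lists were chosen with earlier results of these data known. Named are all members, TERT and BRAF, called genes of each list (up to 4, by smallest p) and the 3 genes nearest in pattern to each member among those with a mean of at least 50 TPM. BRAF was at 2.40 to 7.34 TPM in K5-Tert tumours, 6.02 to 8.99 TPM in Tert-123 tumours, 5.92 to 9.03 TPM in Braf tumours and 8.68 to 15.8 TPM in the pools, which does not show the mutation. Sequences are from RefSeq promoter windows (GRCm38.p6). Alternatives were TMM-type factors (trimming 30% of ratios, 5% of levels), quantiles, rescaling without RPPH1, removal of library mean and length trend, library weights, an Xist covariate, pseudocounts of 0.5 and 5, no filter, a filter at 50 TPM, models without the Tert allele or limited to the compared groups, and libraries left out.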

Additional observations from a re-analysis of the deposited data

Results flagged for a closer look

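Among 30 groups of 4 to 7 tumours examined, 1 for each gene and tumour group, 4 held a library far from the others of its group; chance gives about 1 in 20 groups. S100A4 was at 545.3 TPM in Tert-123 tumour 4, the highest of that group by a wide gap, and S100A10 was at 497.5 TPM in the same library. That library also had the highest macrophage, fibroblast and neutrophil sums of all 18, at 5268, 2379 and 194 TPM. LYZ2 gave 4275 TPM of its macrophage sum, and WFDC21 gave 140 TPM of its neutrophil sum. S100A8 was at 75.4 TPM in Tert-123 tumour 7. S100A9 was listed at 0 in Braf tumour 1, where the other 3 Braf tumours had 0.933 to 0.943 TPM, all near the bottom of the scale.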

How the results depend on the processing

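Of 1224 recomputed results, counting each alternative and each result, 1144 were labelled unchanged. For a log2 fold change this means that it kept its direction and side of the threshold. A count of members could keep that label after a small change, as when S100A16 lost its call without the WT pool. For K5-Tert against Braf tumours the members called higher numbered 3 with TMM-type factors, 2 without RPPH1, 2 with the library mean and length trend removed and 1 with library weights, against 0 as deposited; of all genes 6.66%, 1.25%, 4.77% and 1.34% were called higher in those settings. For K5-Tert against Tert-123 tumours they numbered 5, 1, 1 and 2 in that order of settings, beside 9.09%, 1.77%, 5.18% and 1.12% of all genes, and 0 to 1 when single libraries were left out, the 1 being without Tert-123 tumour 4, where 0.984% of all genes were called. With the Braf mutation 3 members were called higher, not 5, with a filter at 50 TPM, under which fewer members are tested and 25.1% of all genes were called higher. Members called lower numbered 2, not 1, with quantile normalization, with the length trend removed, with library weights and without Tert-123 tumour 4 and K5-Tert tumour 3, a pair chosen after seeing the data, S100A10 being the added gene; 16.2%, 25.2%, 13.6% and 10.4% of all genes were called lower in those settings. The called S100A16 difference lost its call without the filter and without the WT pool. Causes of other changes were not tested.

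Directions that turned belong to log2 fold changes that were not called. For K5-Tert against Braf tumours S100A8 turned to 0.51 with TMM-type factors, 0.39 with quantile normalization, 0.079 without RPPH1, 0.27 with the length trend removed, 0.026 with a pseudocount of 5 and 0.51 with library weights. S100A13 turned to -0.068 and S100A14 to -0.043 with the Xist covariate, S100A13 to -0.010 without Tert-123 tumour 4 and K5-Tert tumour 3, and S100A16 to 0.31 with TMM-type factors and 0.13 with the length trend removed. For Tert-123 against Braf tumours S100A4 turned to -0.079 and S100A11 to -0.089 with library weights, and S100A4 to -0.12 without Tert-123 tumour 4 and K5-Tert tumour 3. For K5-Tert against Tert-123 tumours S100A16 turned to 0.41 with TMM-type factors, 0.13 with quantile normalization, 0.049 without RPPH1, 0.20 with the length trend removed and 0.11 with library weights. Leaving out single libraries gave ranges that cross 0. Against Braf tumours K5-Tert gave -0.39 to 0.58 for S100A8 and -0.13 to 0.21 for S100A13, and Tert-123 gave -0.12 to 0.42 for S100A4, -0.32 to 0.10 for S100A6, -0.17 to 0.080 for S100A10 and -0.21 to 0.051 for S100A16. K5-Tert against Tert-123 tumours gave -0.057 to 0.41 for S100A11 and -0.014 to 0.33 for S100A13, and the Braf mutation gave -0.41 to 0.061 for S100A11. No paired analysis was possible because the library numbers only follow series order.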
